A study of Mus musculus with 4 samples.

Results

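The study's count table held 45 protein-coding genes of voltage-gated calcium channels, calcium release channels, calcium pumps and exchangers, and a calcium-dependent kinase. Their products let calcium into a neuron, store it, remove it or read it through Ca2+/calmodulin-dependent protein kinase II (CaMKII), and they were followed here in sorted striatal neurons of a mouse model of Huntington's disease. They are all the genes of the count table whose mouse symbols start with Cacna, Cacnb, Ryr, Atp2a, Atp2b, Slc8a, Camk2, Stim or Orai, plus Itpr1, Itpr2 and Itpr3. Of these 45 genes, 40 reached 1 CPM (a count of 1 in every 1000000 of the library) in at least 2 libraries and form the set described here, out of 13400 genes that passed the same filter among 37620 listed. The rule by symbol and level used no comparison between groups, but the family was chosen with earlier results of these data known. Of the 40 genes, 38 were at 1 CPM or more in all 4 libraries. Orai1 reached 1 CPM only in the 2 BACHD libraries, so that its place in the set depended on the group in which it is higher, and Camk2n2 reached it only in the 2 D1 libraries, so that its place depended on the cell type in which it is higher.

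The series held 4 RNA-seq libraries, 1 for each of 4 groups: medium spiny neurons of the direct pathway (D1 cells) and of the indirect pathway (D2 cells), each from BACHD mice and from wild-type (WT) littermates. Each library was 1 pool of cells from 4 male FVB/NJ mice aged 5 to 6 months, with 150000 cells per animal, isolated from the corpus striatum by sorting for green fluorescence. BACHD mice are hemizygous for a bacterial artificial chromosome carrying full-length mutant huntingtin with 97 glutamines, driven by the huntingtin gene's own regulatory sequence on that chromosome, so that the transgene is not limited to the sorted cells. All 4 groups, the controls included, carried an enhanced green fluorescent protein (EGFP) reporter. This was Drd1-EGFP for the D1 cells and Drd2-EGFP for the D2 cells, so cell type and reporter line cannot be told apart. The questions addressed were which genes differ between BACHD and WT within each neuron type, and between the neuron types.

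Medium spiny neurons are the output neurons of the striatum. Calcium enters them through voltage-gated channels, each built around a pore-forming alpha1 subunit. In high-voltage-activated channels, alpha2delta and beta subunits carry the alpha1 subunit to the membrane and tune its gating. Ryanodine and inositol trisphosphate (IP3) receptors release calcium from the endoplasmic reticulum, SERCA pumps refill that store, plasma membrane pumps (PMCA) and sodium-calcium exchangers expel calcium, STIM and Orai proteins refill the store from outside, and CaMKII, abundant at excitatory synapses, is activated by calcium-loaded calmodulin.

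Each library held between 41325647 (D1 BACHD) and 44523622 (D2 WT) estimated counts, and 3 counts, taken as the detection floor, stood for 0.0674 to 0.0726 CPM. The defining receptors followed the labels. Scaled by the trimmed mean of M-values (TMM), Drd1 was at 915, 818, 18.5 and 13.4 CPM (WT and then BACHD D1 cells, WT and then BACHD D2 cells, the order of all value series here), and Drd2 was at 20.2, 20.4, 2098 and 2036 CPM. All 5 direct-pathway and all 5 indirect-pathway markers differed between the cell types in the labelled direction (edgeR adjusted p under 0.05). The 5 general markers of medium spiny neurons summed to 7305, 6634, 8926 and 7802 CPM. Markers of other cell types were present unevenly: the summed level of 7 cortical glutamatergic neuron markers was 29.8, 144.9, 3.23 and 5.49 CPM. The summed level of 5 oligodendrocyte markers was 290.4, 334, 313 and 373 CPM, that of 6 astrocyte markers was 124, 172, 167 and 165 CPM, and Sst and Npy of interneurons together gave 15.4, 19.0, 1.29 and 1.61 CPM. Mitochondrially encoded genes took 5.87, 8.03, 8.37 and 9.34% of the counts.

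Levels between genes are compared per length, as the authors' deposited FPKM (fragments scaled to transcript length and library depth). By mean FPKM over the 4 libraries, the highest were Camk2b, Camk2n1, Atp2b1, Camk2a and Ryr3. Camk2b, the beta subunit of CaMKII, was at 483, 469, 483 and 501 FPKM, and Camk2a, the alpha subunit, at 221, 239, 209 and 218 FPKM. Camk2n1, an inhibitor protein of the kinase, was at 260.3, 244, 228 and 224 FPKM. The plasma membrane pump gene Atp2b1 was at 257, 223, 219.7 and 205 FPKM and the SERCA gene Atp2a2 at 178, 163, 183 and 168 FPKM. These genes of the kinase and of the pumps stood above every voltage-gated channel subunit in each library, of which the highest by mean FPKM were Cacnb3 at 111, 112, 74.3 and 81.5 FPKM and Cacna2d3 at 98.6, 86.3, 81.1 and 75.2 FPKM.

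Some roles were led by 1 gene and others were spread over several. To compare within roles without relying on the authors' transcript lengths, TMM-scaled CPM was also divided by the length of each gene's longest coding transcript. On that scale Itpr1, an IP3 receptor abundant in principal neurons, made up 99.4, 99.0, 99.6 and 99.4% of the IP3 receptors, and Itpr2 and Itpr3 were near 1 to 3 CPM. Camk2n1 made up 99.7, 99.2, 99.8 and 99.7% of the 2 CaMKII inhibitors. Among the low-voltage-activated (T-type) alpha1 subunits Cacna1h took 73.5, 69.5, 68.9 and 70.4%, and Cacna2d3 took 71.6, 71.5, 66.0 and 65.6% of the alpha2delta subunits. Of the ryanodine receptors, Ryr3 was the leading gene in all 4 libraries, with 59.4, 58.5, 71.7 and 74.2%. The share of Ryr1, the release channel best known from skeletal muscle, was 30.1 and 30.5% in D1 cells and 14.5 and 13.1% in D2 cells. On the deposited FPKM it was 10.4 and 9.91% in D1 cells and 4.22 and 3.53% in D2 cells, so the size of this share depends on the length used. The high-voltage-activated alpha1 subunits had no single leading gene per kb: in D2 WT Cacna1a took 26.9%, Cacna1e 24.0%, Cacna1b 22.5% and Cacna1d 18.9%. Of STIM and Orai genes in D1 WT, Orai2 took 41.7%, Stim1 27.3% and Stim2 26.6%.

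**Figure D1:**
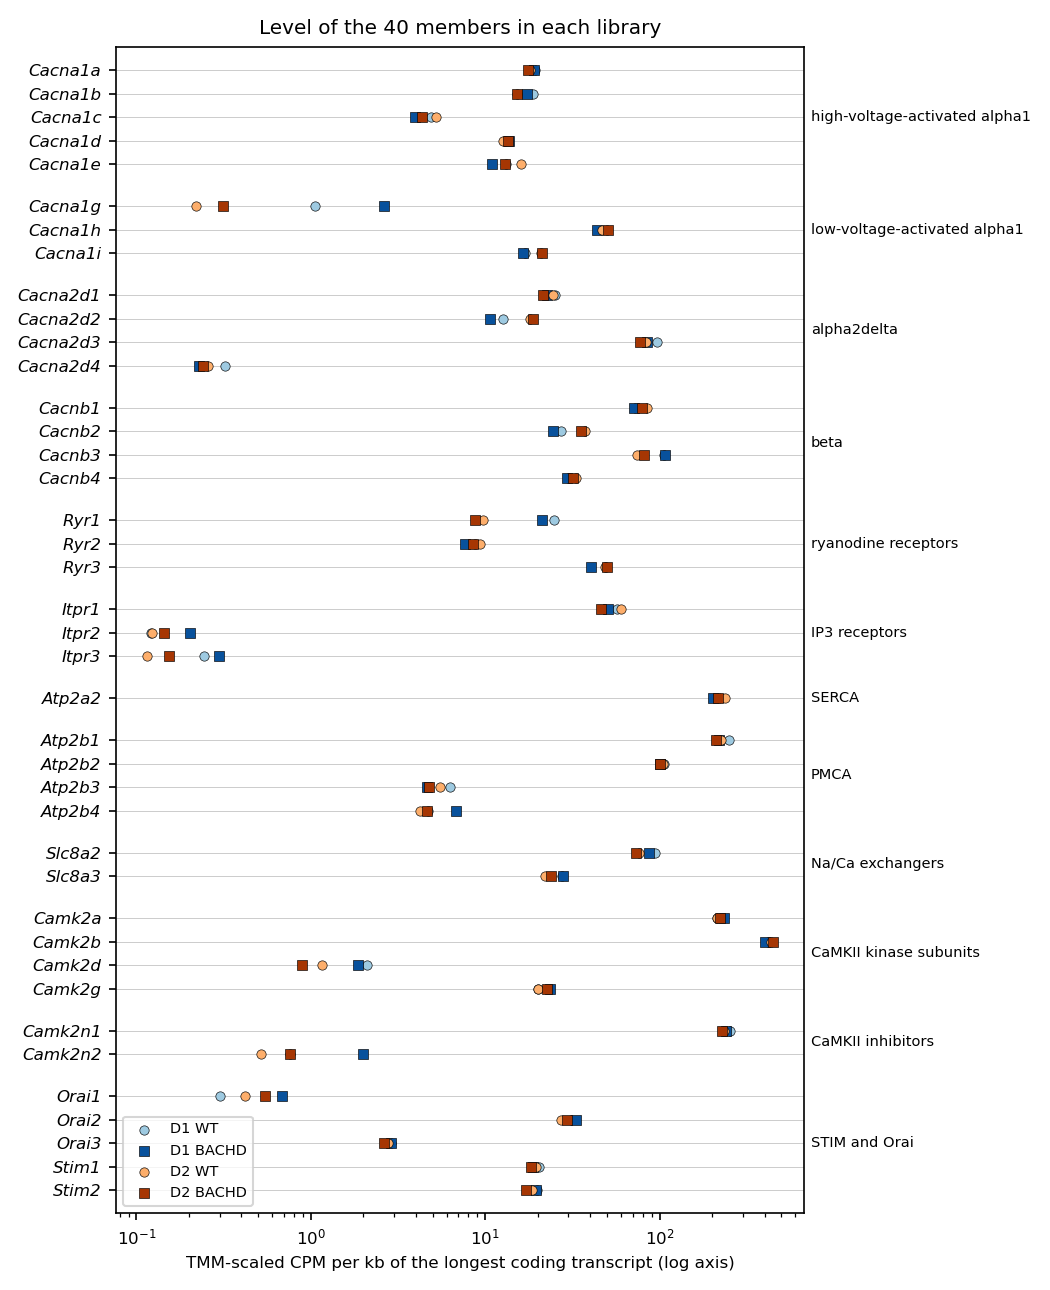
Level of each of the 40 calcium genes (TMM-scaled CPM per kb of the longest coding transcript, log axis), ordered by role, with 1 point for each of the 4 libraries and no error bar because each group is 1 pool. Camk2b was highest, between 403 and 446 CPM per kb, and the libraries lay close together for most genes but far apart for Cacna1g, Ryr1, Camk2d and Camk2n2.

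The rank of some genes depended on the length used. Dividing CPM by FPKM gives the length that the authors' values imply, and for Ryr3 this was 3.33 to 3.72 kb against 15.47 kb for the longest coding transcript. Ryr3 ranked 5 among the 40 genes by mean FPKM and 13 by CPM per kb of the longest transcript. For Itpr1 the implied length was 3.36 to 3.55 kb against 9.87 kb, and for Cacna1g 2.21 to 3.46 kb against 8.38 kb. In 7 of the 40 genes (Cacna1a, Cacna1c, Cacna1g, Ryr3, Itpr1, Atp2b2 and Stim2) the mean implied length was under 0.62 of the longest transcript, and in 22 it lay within 10% of it. The place of those 7 genes in the order of levels therefore depends on the length used, while comparisons of 1 gene between libraries on CPM use no length.

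**Figure D2:**
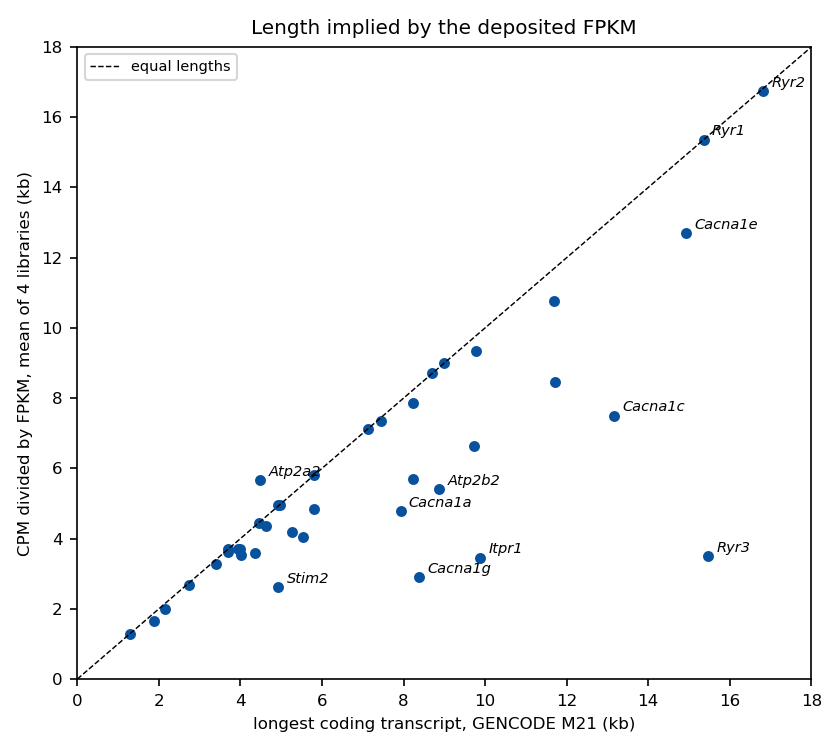
Length implied by the authors' values (CPM divided by FPKM, kb, mean of 4 libraries) against the length of the longest coding transcript (kb) for each calcium gene, both on linear axes, with a dashed line of equality. Ryr3, Itpr1, Cacna1c and Cacna1g lie well below the line, and Ryr1 and Ryr2 lie on it.

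The clearest differences in the family were between D1 and D2 cells. With cell type and genotype as additive terms in edgeR's quasi-likelihood fit, 16 of the 40 genes differed between the cell types (adjusted p under 0.05), against 17.0% of all genes tested. Among genes at 10 CPM or more in at least 2 libraries, 13 of 33 family genes were called, against 17.1% of the 9602 such genes. Of the 16, 11 were higher in D1 cells (Ryr1, Cacna1g, Cacnb3, Camk2d, Slc8a2, Slc8a3, Cacna1b, Itpr3, Atp2b4, Orai2 and Camk2n2), where 10.2% of all genes were called. The other 5 were higher in D2 cells (Cacna2d2, Cacnb2, Cacna1i, Cacna1e and Cacnb1), where 6.81% of all genes were called. Camk2n2 passed the filter only through its D1 libraries and so had to be higher there. Without it 15 genes were called, 10 of them higher in D1 cells. In bulk RNA, fewer cells with a transcript and less of it per cell cannot be told apart, and markers of other cell types also differed between D1 and D2 libraries, as given above. At a ratio of 2 or more, 3 genes were higher in D1 than in D2 cells of WT mice, against 3.14% of all genes, and 4 in BACHD mice, against 3.39%. Camk2n2 was 1 of the 4 in BACHD mice, beside Cacna1g, Ryr1 and Camk2d. In 25 genes the D2 to D1 ratio pointed the same way in WT and BACHD mice with both counting intervals excluding no change, against 30.5% of all genes. The fit had 1 residual degree of freedom, and nothing in the labels separates the animals within a pool.

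**Figure D3:**
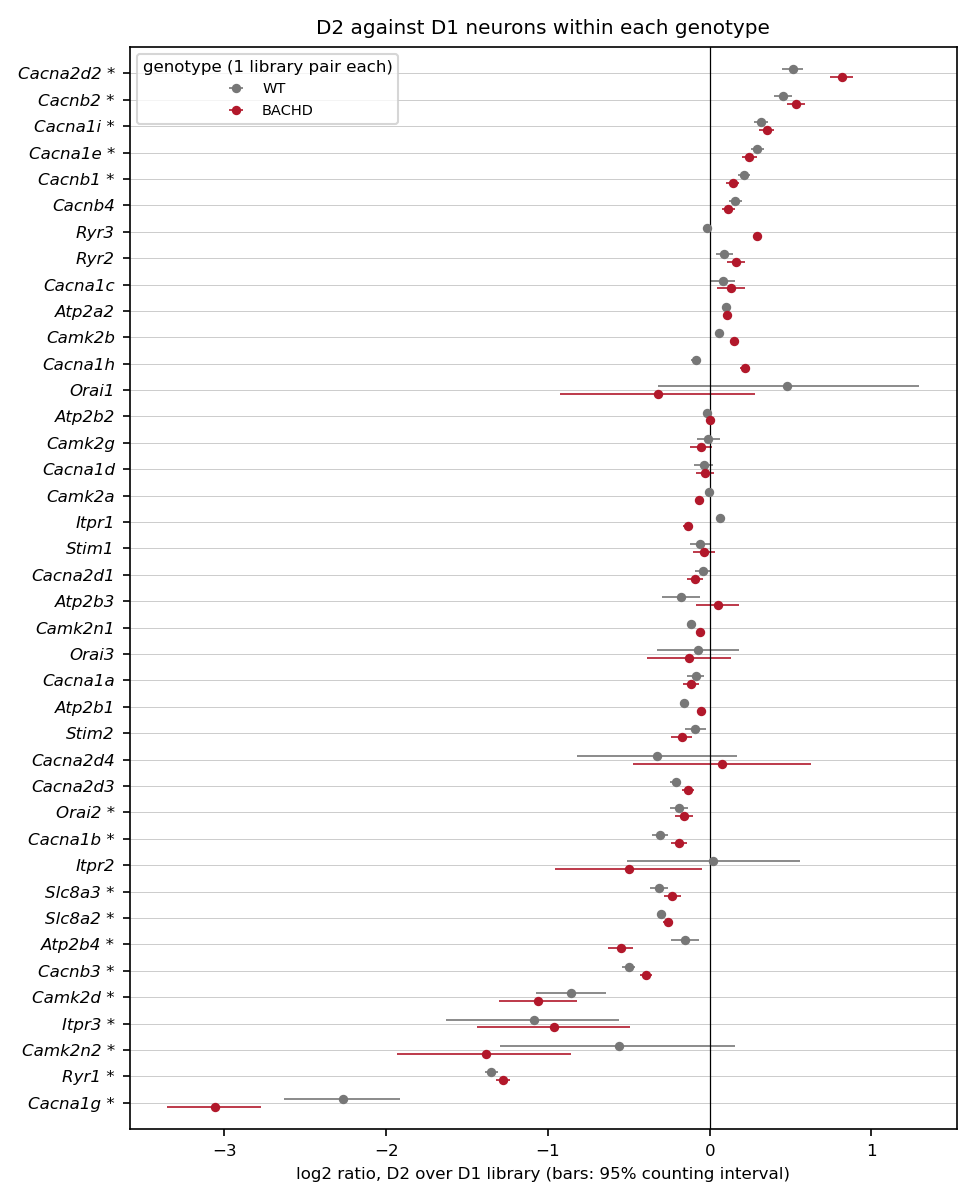
Log2 ratio of the D2 to the D1 library within WT (grey) and within BACHD (red) for the 40 calcium genes, with bars of 95% counting intervals and a star at the 16 genes called by edgeR's cell type term. Of the starred genes, Cacna2d2 and Cacnb2 lie farthest to the right in both genotypes, and Cacna1g lies farthest to the left.

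Among the voltage-gated alpha1 subunits, the T-type channel gene Cacna1g (ENSMUSG00000020866, chromosome 11, 94408391 to 94474198, minus strand) differed most. It was at 8.86 and 22.0 CPM in WT and BACHD D1 cells and 1.84 and 2.64 CPM in WT and BACHD D2 cells, and so 4.8-fold higher in D1 than in D2 cells of WT mice and 8.34-fold higher in BACHD mice (log2 D2 minus D1 -2.71 ± 0.19 (SE), edgeR adjusted p = 5.56e-05). Both D1 libraries lay above both D2 libraries, and the 2 D1 libraries themselves were far apart. The summed cortical neuron markers had the same order over the 4 libraries as Cacna1g. Of the other genes called higher in D1 cells, Cacnb3, Slc8a3, Atp2b4, Orai2, Itpr3 and Camk2n2 also had this order. Ryr1, Camk2d, Slc8a2 and Cacna1b did not. The part of cortical neuron RNA in these differences was not tested. The other T-type genes behaved differently: Cacna1i was at 165, 162, 205 and 206 CPM and was higher in D2 cells (log2 D2 minus D1 0.33 ± 0.05 (SE), edgeR adjusted p = 0.00217), and Cacna1h, at 409, 359, 386 and 418 CPM, did not pass the test (log2 D2 minus D1 0.07 ± 0.07 (SE), edgeR adjusted p = 0.613).

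Of the high-voltage-activated alpha1 subunits, Cacna1e, the R-type pore, was at 196 and 163 CPM in WT and BACHD D1 cells and 241 and 193 CPM in WT and BACHD D2 cells. It was 1.23-fold higher in D2 than in D1 cells of WT mice and 1.18-fold higher in BACHD mice (log2 D2 minus D1 0.27 ± 0.05 (SE), edgeR adjusted p = 0.00678). Cacna1b, the N-type pore that drives transmitter release, was at 183, 169, 147 and 149 CPM and was higher in D1 cells (log2 D2 minus D1 -0.25 ± 0.05 (SE), edgeR adjusted p = 0.0137). Cacna1a, the P/Q-type pore, was at 152, 152, 143 and 140.1 CPM and did not pass the test (log2 D2 minus D1 -0.10 ± 0.05 (SE), edgeR adjusted p = 0.197). The L-type pores Cacna1c and Cacna1d were at 64.6, 52.0, 68.4 and 57.0 CPM and 113, 119, 110.4 and 117 CPM, and neither was called for cell type. Leaving out any 1 of the 4 libraries ended the Cacna1e call, and leaving out any but D1 BACHD ended the Cacna1b call.

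The accessory subunits went in both directions. The alpha2delta gene Cacna2d2 (ENSMUSG00000010066, chromosome 9, 107399612 to 107529343, plus strand) was at 73.5 and 62.0 CPM in WT and BACHD D1 cells and 105 and 109 CPM in WT and BACHD D2 cells, and the beta subunit gene Cacnb2 (ENSMUSG00000057914, chromosome 2, 14603088 to 14987908, plus strand) at 107, 97.0, 147 and 140.4 CPM. Both were higher in D2 cells (log2 D2 minus D1 0.66 ± 0.07 (SE), edgeR adjusted p = 0.000674 for Cacna2d2, and log2 D2 minus D1 0.49 ± 0.05 (SE), edgeR adjusted p = 0.000374 for Cacnb2). Cacnb3, the beta subunit gene with the highest mean FPKM, was at 289, 294, 204 and 224 CPM and was 1.42-fold higher in D1 than in D2 cells of WT mice and 1.31-fold higher in BACHD mice (log2 D2 minus D1 -0.45 ± 0.05 (SE), edgeR adjusted p = 0.000795). Its share of beta subunit level per kb was 44.9 and 46.1% in the D1 libraries and 32.5 and 35.8% in the D2 libraries. Cacnb1 was at 247, 243, 286 and 268 CPM (log2 D2 minus D1 0.18 ± 0.05 (SE), edgeR adjusted p = 0.0459). Its call held in 1 of 11 alternatives. Its share per kb was 30.9, 30.7, 36.7 and 34.6%, so that Cacnb1 was above Cacnb3 in D2 WT and below it in the other 3 libraries. Cacna2d1, at 187, 169, 182 and 159 CPM, and Cacna2d3, at 355, 312, 307 and 284 CPM, both binding partners of alpha1 subunits, did not pass (log2 D2 minus D1 -0.07 ± 0.05 (SE), edgeR adjusted p = 0.405 for Cacna2d1, and log2 D2 minus D1 -0.17 ± 0.05 (SE), edgeR adjusted p = 0.0535 for Cacna2d3).

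Of the release channels, Ryr1 (ENSMUSG00000030592, chromosome 7, 29003344 to 29125179, minus strand) differed between the cell types with the smallest adjusted p of the family. Ryr1 was at 382 and 325 CPM in WT and BACHD D1 cells and 150.1 and 134 CPM in WT and BACHD D2 cells. Both D1 libraries lay above both D2 libraries by more than the difference between the genotypes, and Ryr1 was 2.55-fold higher in D1 than in D2 cells of WT mice and 2.42-fold higher in BACHD mice (log2 D2 minus D1 -1.31 ± 0.05 (SE), edgeR adjusted p = 1.93e-06). Ryr2, the cardiac release channel, was at 148, 128, 157 and 144 CPM. Ryr3 was at 761, 627, 750.2 and 767 CPM and Itpr1 at 565, 498, 589.7 and 453 CPM, and neither passed (log2 D2 minus D1 0.14 ± 0.08 (SE), edgeR adjusted p = 0.294 for Ryr3, and log2 D2 minus D1 -0.04 ± 0.06 (SE), edgeR adjusted p = 0.755 for Itpr1). The low Itpr3 was at 2.20, 2.68, 1.04 and 1.38 CPM (log2 D2 minus D1 -1.02 ± 0.21 (SE), edgeR adjusted p = 0.0148).

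CaMKII's 2 main kinase genes did not pass the test for cell type. Camk2a was at 1065, 1162, 1063 and 1108 CPM and Camk2b at 1687, 1621, 1754 and 1795 CPM (log2 D2 minus D1 -0.04 ± 0.06 (SE), edgeR adjusted p = 0.730 for Camk2a, and log2 D2 minus D1 0.10 ± 0.06 (SE), edgeR adjusted p = 0.308 for Camk2b). The delta subunit gene Camk2d (ENSMUSG00000053819, chromosome 3, 126596302 to 126846326, plus strand) was much lower, at 11.6 and 10.3 CPM in WT and BACHD D1 cells and 6.38 and 4.93 CPM in WT and BACHD D2 cells. It was 1.81-fold higher in D1 than in D2 cells of WT mice and 2.09-fold higher in BACHD mice (log2 D2 minus D1 -0.96 ± 0.12 (SE), edgeR adjusted p = 0.00114). The inhibitor gene Camk2n1 was at 1129.7, 1065, 1041 and 1020.1 CPM (log2 D2 minus D1 -0.09 ± 0.05 (SE), edgeR adjusted p = 0.334), and the other inhibitor gene, Camk2n2, at 0.984, 2.56, 0.668 and 0.981 CPM, with no test given for cell type because only its D1 libraries met the filter.

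The extrusion genes that differed were all higher in D1 cells. The sodium-calcium exchanger Slc8a2 was at 494, 459.8, 401 and 384 CPM (log2 D2 minus D1 -0.28 ± 0.05 (SE), edgeR adjusted p = 0.00709) and Slc8a3 at 135, 138, 109 and 117 CPM (log2 D2 minus D1 -0.27 ± 0.05 (SE), edgeR adjusted p = 0.00750). The pump gene Atp2b4 was at 55.2, 80.1, 49.7 and 54.7 CPM (log2 D2 minus D1 -0.35 ± 0.09 (SE), edgeR adjusted p = 0.0317), and it was the D1 BACHD library that stood above the other 3. The abundant pump genes did not pass: Atp2b1 was at 1792, 1557, 1607 and 1498 CPM (log2 D2 minus D1 -0.11 ± 0.06 (SE), edgeR adjusted p = 0.286). Atp2b2 was at 944, 895, 934 and 897 CPM (log2 D2 minus D1 -0.01 ± 0.05 (SE), edgeR adjusted p = 0.964) and Atp2a2 at 989, 906, 1063 and 974 CPM (log2 D2 minus D1 0.10 ± 0.05 (SE), edgeR adjusted p = 0.249). Of the store-operated entry genes, the pore gene Orai2 was at 124, 132, 108 and 118 CPM and was called (log2 D2 minus D1 -0.17 ± 0.05 (SE), edgeR adjusted p = 0.0422). The store sensor Stim2 was at 97.6, 95.9, 91.8 and 85.1 CPM and was not (log2 D2 minus D1 -0.13 ± 0.05 (SE), edgeR adjusted p = 0.134).

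Of the 16 cell type calls, 5 were made under every alternative that tested them, leaving out each library in turn included: Ryr1, Cacna1g, Cacna2d2, Cacnb2 and Camk2d. Cacnb3 lost its call in 1 of 11 alternatives, the fit without D2 WT (edgeR adjusted p = 0.0549). The calls of Cacna1i, Slc8a2 and Slc8a3 held in 7 of 11, and those of the other 7 genes in at most 5. Without D2 WT, 5 of the 40 genes were called, without D2 BACHD 6, without D1 BACHD 9 and without D1 WT 11.

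Promoter sequence is shown for Ryr1, Camk2d and Cacna2d2, the 3 of these 5 genes with a single window in the RefSeq promoter table (build GRCm38.p6), which held 29 of the 40 genes. Each run covers 250 bases before to 50 bases after the annotated start, 5′ to 3′ on the gene's strand, and capitals mark matches on either strand to a GC box (GGGCGG) or a CCAAT box (CCAAT). The windows are chr7:29125102-29125401, minus strand, for Ryr1, chr3:126596701-126597000, plus strand, for Camk2d, and chr9:107399630-107399929, plus strand, for Cacna2d2.
Ryr1: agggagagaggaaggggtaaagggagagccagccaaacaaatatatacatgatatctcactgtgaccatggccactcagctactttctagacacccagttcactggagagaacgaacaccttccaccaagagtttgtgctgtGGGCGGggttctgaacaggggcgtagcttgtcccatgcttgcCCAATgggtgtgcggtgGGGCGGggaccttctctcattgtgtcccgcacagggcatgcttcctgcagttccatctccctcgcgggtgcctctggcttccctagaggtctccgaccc
Camk2d: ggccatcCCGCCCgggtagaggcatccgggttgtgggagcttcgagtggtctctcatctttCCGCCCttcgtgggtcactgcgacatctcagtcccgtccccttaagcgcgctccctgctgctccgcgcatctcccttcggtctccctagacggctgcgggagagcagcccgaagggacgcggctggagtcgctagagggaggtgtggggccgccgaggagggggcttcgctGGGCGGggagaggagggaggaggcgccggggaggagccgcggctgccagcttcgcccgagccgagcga
Cacna2d2: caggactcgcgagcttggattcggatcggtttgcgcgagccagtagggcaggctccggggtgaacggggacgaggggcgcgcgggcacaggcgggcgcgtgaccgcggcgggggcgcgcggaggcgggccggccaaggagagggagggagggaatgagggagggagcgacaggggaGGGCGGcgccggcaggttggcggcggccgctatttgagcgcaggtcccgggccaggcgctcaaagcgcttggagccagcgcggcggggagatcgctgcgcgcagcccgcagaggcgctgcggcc
A GC box was found 2 times in the Ryr1 window, 3 times in the Camk2d window and 1 time in the Cacna2d2 window, and a CCAAT box 1 time, in the Ryr1 window. Over all 32851 windows of the table, 35.7% held a GC box and 37.4% a CCAAT box. Of the 40 windows of family genes, 70.0% held a GC box and 30.0% a CCAAT box. The cyclic AMP response element in its full form (TGACGTCA) was in 1.79% of all windows and a TATA box (TATAAA) in 13.6%, and the 3 windows printed held neither. The GC content was 56.7% for Ryr1, 70.3% for Camk2d and 75.7% for Cacna2d2, against a median of 52.7% over all windows. The D1-higher Ryr1 and Camk2d and the D2-higher Cacna2d2 all held a GC box, and these matches describe letters, not bound sites.

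Between genotypes, none of the 40 genes passed edgeR's test (adjusted p under 0.05), against 0.44% of all genes tested. At an unadjusted p under 0.05, 15 of the 40 were past it, against 13.4% of all genes. Of these, 10 were lower in BACHD, against 7.07% of all genes, and 5 were higher, against 6.37%. Orai1, which met the filter only through its BACHD libraries, was 1 of the 5. DESeq2 called 2, Cacna1e (DESeq2 adjusted p = 0.0195) and Itpr1 (DESeq2 adjusted p = 0.0228), both lower in BACHD, and limma on FPKM called none. With scaling by total counts in place of TMM, edgeR called 3: Cacna1g higher (edgeR adjusted p = 0.0233), and Cacna1e and Cacna1c lower (edgeR adjusted p = 0.0293 and 0.0479). Each genotype has 1 pool per cell type, so the fit estimates a difference shared by both cell types, and separate ratios in D1 and D2 cells are given with 95% intervals for counting error only.

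Many of the differences were small and pointed the same way in both cell types. BACHD was lower than WT in 28 of the 40 genes in D1 cells, against 49.5% of all genes, and in 22 in D2 cells, against 47.4%. All 22 of the latter were also lower in D1 cells, and 28.7% of all genes were lower in both. In 12 of the 40 genes BACHD was higher in both, against 31.8% of all genes. Orai1 was 1 of the 12, and it met the filter only through its BACHD libraries, so it had to be higher there. In 15 of the 40 genes BACHD was lower in both with both counting intervals excluding no change, against 8.87% of all genes. Among the 33 genes at 10 CPM or more in at least 2 libraries the number was also 15, against 11.3%. These were Cacna1c, Cacna1e, Cacna2d1, Cacna2d3, Cacnb2, Ryr1, Ryr2, Itpr1, Atp2a2, Atp2b1, Atp2b2, Atp2b3, Slc8a2, Camk2n1 and Stim1. Another 6 genes were higher in both with intervals excluding no change (Cacna1d, Cacna1g, Atp2b4, Camk2a, Camk2g and Orai2), against 6.4% of all genes. At 10 CPM or more it was 5 of 33, against 7.38%. In 3 genes (Cacna1h, Ryr3 and Camk2b) the directions were opposite with both intervals excluding no change, against 4.66% of all genes. The median log2 ratio of the 40 genes was -0.08 in D1 cells and -0.05 in D2 cells, beside 0.00 and 0.01 over all genes tested. Counting intervals hold no variation between animals or pools, and intervals narrow with depth.

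**Figure D4:**
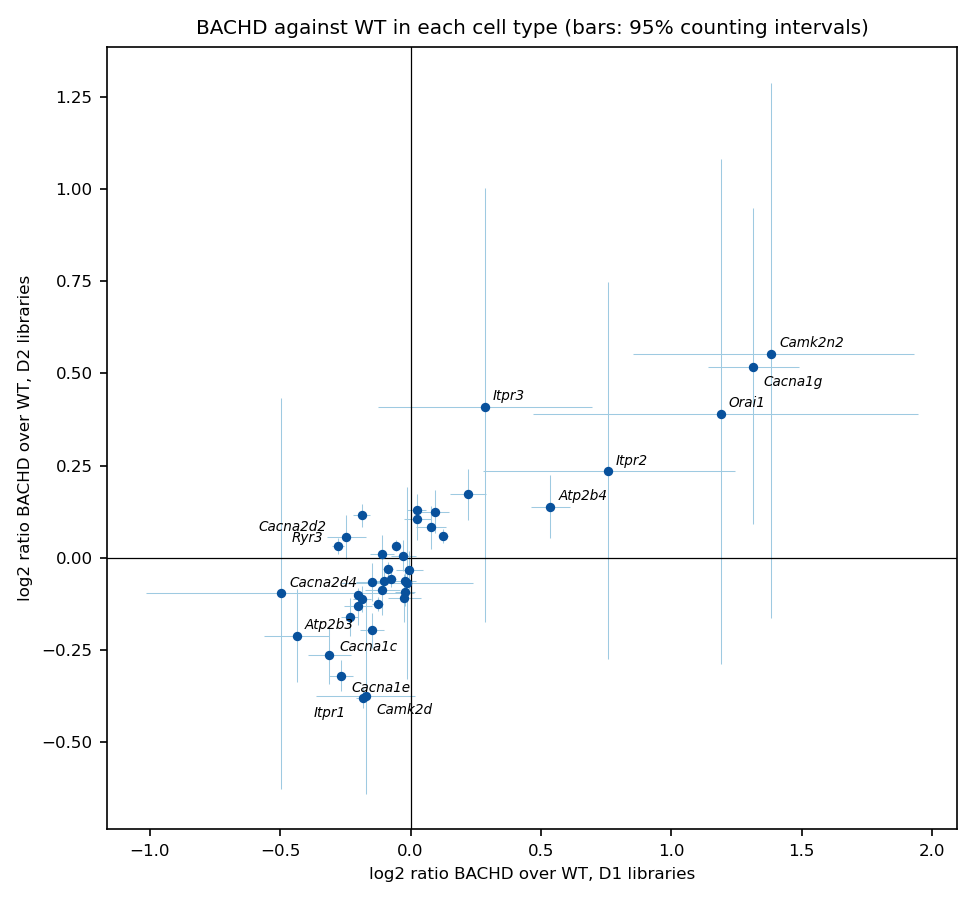
Log2 ratio of BACHD to WT in D1 cells (horizontal axis) and in D2 cells (vertical axis) for the 40 calcium genes, with bars of 95% counting intervals and lines at no change. Of the 40 genes, 22 lie below no change on both axes. The abundant Camk2a, Camk2b and Ryr3 are not among these, and Cacna1g, Camk2n2, Orai1 and Atp2b4 lie to the right.

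For the single genes below, the log2 ratio of BACHD to WT in D1 cells comes before that in D2 cells, and the brackets after them hold the fitted log2 difference shared by both cell types. None of these shared differences passed the test. Of the channel pores, the R-type gene Cacna1e and the L-type gene Cacna1c were lower by similar amounts in both cell types. The Cacna1e level of 196 CPM in D1 WT was 163 in D1 BACHD, and its 241 CPM in D2 WT was 193 in D2 BACHD. This is 16.9% and 19.9% less, a log2 ratio of -0.27 (interval -0.31 to -0.22) in D1 cells and -0.32 (interval -0.36 to -0.28) in D2 cells (shared -0.29 ± 0.05 (SE), edgeR adjusted p = 0.0637). Cacna1c was 19.4% lower in D1 cells, with a log2 ratio of -0.31 (interval -0.39 to -0.23), and 16.7% lower in D2 cells, with a log2 ratio of -0.26 (interval -0.34 to -0.19) (shared -0.29 ± 0.05 (SE), edgeR adjusted p = 0.0904). In contrast the other L-type pore, Cacna1d, had log2 ratios of 0.08 (interval 0.02 to 0.13) and 0.08 (interval 0.03 to 0.14). Cacna1a and Cacna1i differed little in either cell type: the Cacna1a log2 ratios were 0.00 (interval -0.05 to 0.05) and -0.03 (interval -0.08 to 0.02), and those of Cacna1i -0.03 (interval -0.08 to 0.02) and 0.01 (interval -0.04 to 0.05) (shared -0.02 ± 0.05 (SE), edgeR adjusted p = 0.896 for Cacna1a, and shared -0.01 ± 0.05 (SE), edgeR adjusted p = 0.943 for Cacna1i). The low-voltage-activated Cacna1h pointed in opposite directions, with -0.19 (interval -0.22 to -0.16) and 0.11 (interval 0.08 to 0.15) (shared -0.04 ± 0.07 (SE), edgeR adjusted p = 0.873). On the authors' FPKM its log2 ratios were -0.37 in D1 cells and 0.0013 in D2 cells. The N-type Cacna1b had -0.11 (interval -0.16 to -0.06) in D1 cells and 0.01 (interval -0.04 to 0.06) in D2 cells (shared -0.05 ± 0.05 (SE), edgeR adjusted p = 0.722).

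Of the accessory alpha2delta subunit genes, Cacna2d1 and Cacna2d3 pointed down in both cell types. Cacna2d1 was at -0.15 (interval -0.19 to -0.10) in D1 cells and -0.20 (interval -0.24 to -0.15) in D2 cells on the log2 ratio scale (shared -0.17 ± 0.05 (SE), edgeR adjusted p = 0.205). Cacna2d3 was at -0.19 (interval -0.22 to -0.15) and -0.11 (interval -0.15 to -0.08) (shared -0.15 ± 0.05 (SE), edgeR adjusted p = 0.268). Cacna2d2 had a log2 ratio of -0.25 (interval -0.32 to -0.17) in D1 cells and 0.06 (interval 0.00 to 0.12) in D2 cells, so only its D1 interval excluded no change. Cacna2d4, a subunit known from the retina, was at 1.87, 1.33, 1.5 and 1.40 CPM with both intervals including no change. The beta subunit genes, whose products bind the alpha1 subunit inside the cell, did not share a direction. Cacnb2 had log2 ratios of -0.15 (interval -0.21 to -0.09) and -0.07 (interval -0.12 to -0.01), and Cacnb1 -0.02 (interval -0.06 to 0.02) and -0.09 (interval -0.13 to -0.06). Cacnb3 had 0.02 (interval -0.01 to 0.06) and 0.13 (interval 0.09 to 0.17), and Cacnb4, at 245, 241, 273 and 261 CPM, -0.02 (interval -0.06 to 0.02) and -0.06 (interval -0.10 to -0.03). Neither Cacnb1 nor Cacnb3 passed the test (shared -0.06 ± 0.05 (SE), edgeR adjusted p = 0.664 for Cacnb1, and shared 0.08 ± 0.05 (SE), edgeR adjusted p = 0.568 for Cacnb3).

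Among release channels, Itpr1, Ryr1 and Ryr2 were below WT in both cell types. The Itpr1 level of 565 CPM in D1 WT was 498 in D1 BACHD, and 589.7 CPM in D2 WT was 453 in D2 BACHD. This is 11.8% less in D1 cells and 23.1% less in D2 cells, with log2 ratios of -0.18 (interval -0.21 to -0.16) and -0.38 (interval -0.41 to -0.35) (shared -0.28 ± 0.06 (SE), edgeR adjusted p = 0.141). Ryr1 had -0.23 (interval -0.27 to -0.20) in D1 cells and -0.16 (interval -0.21 to -0.11) in D2 cells (shared -0.20 ± 0.05 (SE), edgeR adjusted p = 0.176), and Ryr2 had -0.20 (interval -0.25 to -0.15) and -0.13 (interval -0.18 to -0.08) (shared -0.17 ± 0.05 (SE), edgeR adjusted p = 0.217). Ryr3 was lower in D1 BACHD alone, with -0.28 (interval -0.30 to -0.26) in D1 cells and 0.03 (interval 0.01 to 0.05) in D2 cells (shared -0.12 ± 0.08 (SE), edgeR adjusted p = 0.532). The 2 rarer IP3 receptor genes lay above WT in both cell types. Itpr2 was at 1.41, 2.37, 1.43 and 1.68 CPM, with log2 ratios of 0.76 (interval 0.28 to 1.24) and 0.23 (interval -0.28 to 0.75). Itpr3 had log2 ratios of 0.28 (interval -0.12 to 0.69) and 0.41 (interval -0.17 to 1.0) (shared 0.34 ± 0.21 (SE), edgeR adjusted p = 0.539).

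The pumps and exchangers were mostly slightly lower in BACHD. Atp2a2 had a log2 ratio of -0.13 (interval -0.15 to -0.11) in D1 cells and -0.13 (interval -0.14 to -0.11) in D2 cells (shared -0.13 ± 0.05 (SE), edgeR adjusted p = 0.368). Atp2b1 had -0.20 (interval -0.22 to -0.19) and -0.10 (interval -0.12 to -0.09) (shared -0.15 ± 0.06 (SE), edgeR adjusted p = 0.334), and Atp2b2 -0.08 (interval -0.10 to -0.06) and -0.06 (interval -0.08 to -0.04) (shared -0.07 ± 0.05 (SE), edgeR adjusted p = 0.627). Atp2b3, a scarcer neuronal pump gene at 29.0, 21.5, 25.7 and 22.2 CPM, was 26.1% lower in D1 cells and 13.6% lower in D2 cells (shared -0.32 ± 0.08 (SE), edgeR adjusted p = 0.175). Atp2b4 pointed the other way, from 55.2 to 80.1 CPM in D1 cells and from 49.7 to 54.7 CPM in D2 cells (shared 0.34 ± 0.09 (SE), edgeR adjusted p = 0.189). The exchanger genes pointed in different directions from each other. Slc8a2 had -0.10 (interval -0.13 to -0.08) and -0.06 (interval -0.09 to -0.03) (shared -0.08 ± 0.05 (SE), edgeR adjusted p = 0.515), and Slc8a3 0.03 (interval -0.03 to 0.08) and 0.11 (interval 0.05 to 0.16) (shared 0.07 ± 0.05 (SE), edgeR adjusted p = 0.608).

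CaMKII kinase subunits did not share 1 direction. The gamma subunit gene Camk2g was at 74.4 and 86.6 CPM in WT and BACHD D1 cells and 73.9 and 83.3 CPM in WT and BACHD D2 cells, which is 16.3% and 12.7% more in BACHD (shared 0.20 ± 0.05 (SE), edgeR adjusted p = 0.186). Camk2a had log2 ratios of 0.13 (interval 0.11 to 0.14) and 0.06 (interval 0.04 to 0.08) (shared 0.09 ± 0.06 (SE), edgeR adjusted p = 0.513), and Camk2b -0.06 (interval -0.07 to -0.04) and 0.03 (interval 0.02 to 0.05) (shared -0.01 ± 0.06 (SE), edgeR adjusted p = 0.95). Camk2d had -0.17 (interval -0.36 to 0.02) in D1 cells and -0.37 (interval -0.64 to -0.11) in D2 cells. The inhibitor gene Camk2n1 was within a few percent of WT, with -0.09 (interval -0.10 to -0.07) and -0.03 (interval -0.05 to -0.01) (shared -0.06 ± 0.05 (SE), edgeR adjusted p = 0.698).

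Of the store-operated entry genes, Orai1 is described below with the genes past a 2-fold ratio. Stim1, the store sensor, was at 88.4, 82.0, 85.0 and 79.9 CPM with log2 ratios of -0.11 (interval -0.18 to -0.04) and -0.09 (interval -0.16 to -0.02), and Stim2 had -0.02 (interval -0.09 to 0.04) and -0.11 (interval -0.17 to -0.04) (shared -0.07 ± 0.05 (SE), edgeR adjusted p = 0.616). Orai2 had 0.09 (interval 0.04 to 0.15) in D1 cells and 0.13 (interval 0.07 to 0.18) in D2 cells (shared 0.11 ± 0.05 (SE), edgeR adjusted p = 0.377). Orai3 was at 6.21, 6.15, 5.90 and 5.63 CPM, and both of its intervals included no change.

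Only 3 genes reached a 2-fold ratio with an interval excluding no change, all of them higher in D1 BACHD than in D1 WT, where 1.02% of all genes did so. They were Cacna1g, Camk2n2 and Orai1. Orai1 met the filter only through its BACHD libraries, and without it 2 genes remain. None of the 40 was 2-fold lower in D1 BACHD, against 0.284% of all genes. None was 2-fold higher or lower in D2 cells, against 0.276% and 0.313%. With the ratio lowered to 5 to 4, 5 genes were higher and 1 lower in D1 cells, against 5.99% and 3.8% of all genes. Orai1 was again among the 5. In D2 cells 1 was higher and 2 were lower, against 4.04% and 3.32%. Cacna1g had log2 ratios of 1.31 (interval 1.14 to 1.49) in D1 cells and 0.52 (interval 0.09 to 0.95) in D2 cells (shared 1.06 ± 0.18 (SE), edgeR adjusted p = 0.0700). Camk2n2 had 1.38 (interval 0.85 to 1.93) and 0.55 (interval -0.16 to 1.29) (shared 1.04 ± 0.28 (SE), edgeR adjusted p = 0.205). Orai1, the store-operated pore gene best known from lymphocytes, was at 0.562, 1.28, 0.783 and 1.03 CPM, with 1.19 (interval 0.47 to 1.95) and 0.39 (interval -0.29 to 1.08). The D2 intervals of Camk2n2 and Orai1 included no change. On the authors' FPKM the D1 log2 ratio of Cacna1g was 0.88, short of 2-fold. Those of Camk2n2 and Orai1 on FPKM were 1.37 and 1.24.

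Orai1 and Camk2n2 had the lowest mean CPM of the 40 genes. The D1 BACHD library was also the one with the most cortical marker RNA. All 7 cortical markers tested were higher in D1 BACHD than in D1 WT, with a median log2 ratio of 2.38, and 6 of 7 were higher in D2 BACHD than in D2 WT, with a median of 0.37. Their sum was 144.9 CPM in D1 BACHD against 29.8 CPM in D1 WT. The part of these cells in the Cacna1g, Camk2n2 and Orai1 ratios was not tested.

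**Figure D5:**
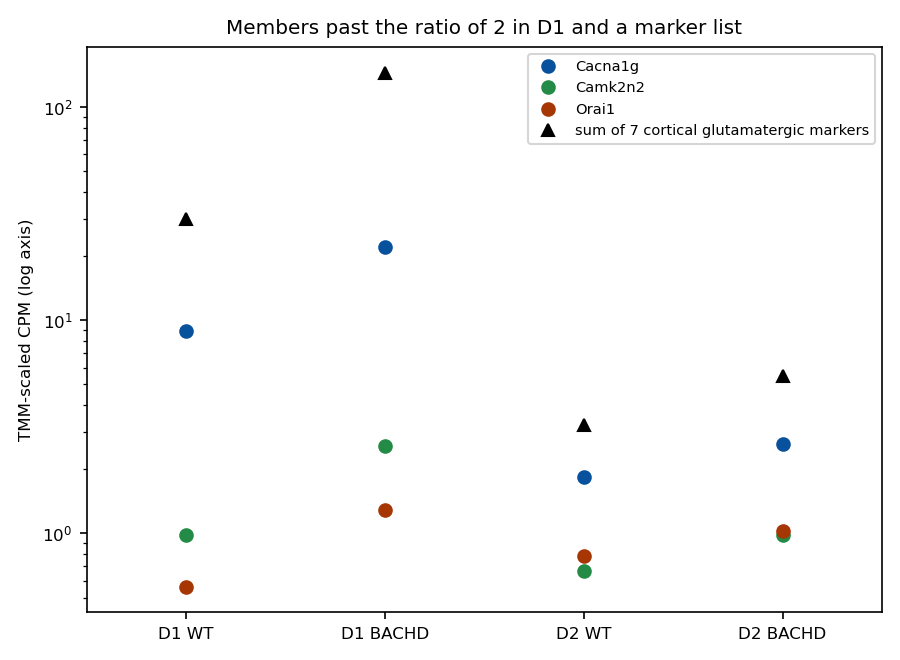
TMM-scaled CPM (log axis) in each of the 4 libraries for the calcium genes that reached a 2-fold ratio in D1 cells, Cacna1g, Camk2n2 and Orai1, and for the summed cortical neuron markers, 1 point per library. Every series is highest in D1 BACHD.

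Calcium genes outside the family were read from 8 lists of regulators, buffers and effectors. Of 89 genes listed, 77 passed the filter, and edgeR's genotype test called none of them, while 21 had an unadjusted p under 0.05 (13.4% of all genes did), DESeq2 called 2 and limma on FPKM called none. The cell type test called 12 of the 77 higher in D2 cells, against 6.81% of all genes, and 14 higher in D1 cells, against 10.2%. Gem, among the 12, met the filter only through its D2 libraries. Of 16 calcium-binding protein genes tested, 4 were higher in D2 cells and 6 in D1 cells. Hpca, encoding hippocalcin, a neuronal calcium sensor and the most abundant gene of that list, was at 2273, 2333, 3939 and 3887 CPM (log2 D2 minus D1 0.76 ± 0.06 (SE), edgeR adjusted p = 0.000129). Necab1, another calcium-binding protein gene, was at 64.4, 48.6, 351 and 299 CPM (log2 D2 minus D1 2.53 ± 0.06 (SE), edgeR adjusted p = 1.36e-07). Hpcal1, encoding a relative of hippocalcin, was at 13.0, 13.6, 1.5 and 0.934 CPM and higher in D1 cells (log2 D2 minus D1 -3.45 ± 0.19 (SE), edgeR adjusted p = 1.59e-05), although only 1 of its D2 libraries reached 1 CPM. Also higher in D1 cells were Vsnl1, Ncald, Hpcal4, Pcp4 and Calm2. Vsnl1, Ncald and Hpcal4 had the same order over the 4 libraries as the summed cortical neuron markers, with Ncald at 6.40, 17.6, 2.95 and 4.06 CPM. Hpcal1, Pcp4 and Calm2 did not have this order, and the part of cortical neuron RNA was not tested. Calb1 and Nrgn were higher in D2 cells.

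Of 12 genes for channel gamma subunits and channel regulators, 2 were higher in D2 cells, Gem and Stac2, and Cacng5 was higher in D1 cells. Gem was at 0.187, 0.214, 2.07 and 2.48 CPM and met the filter only through its D2 libraries, so it had to be higher there. Of 13 genes of IP3 production and turnover, 3 were higher in D1 cells, Gnaq and Plcb3 among them. Of 8 genes of store scaffolds and SERCA regulators, Homer2 was higher in D2 cells (log2 D2 minus D1 1.70 ± 0.15 (SE), edgeR adjusted p = 0.000229) and Homer1 in D1 cells. Of 8 other calmodulin-dependent kinase genes, Camk1g and Camkv were higher in D2 cells and Camk1 and Camk1d in D1 cells. Rcan2 was the one gene of 7 in the calcineurin list that was called, and Mcub the one of 8 in the mitochondrial list, both higher in D2 cells. Of 5 other exchanger and pump genes, Slc24a2 was higher in D2 cells and Atp2c1 in D1 cells. Slc24a2, a potassium-dependent sodium-calcium exchanger, was at 512, 399, 603 and 505 CPM, lower in BACHD than in WT in both cell types, with an edgeR genotype adjusted p of 0.0748.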

How the data were processed

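RNA of 4 pooled libraries was sequenced as paired 50-base reads, per the labels. The deposited tables hold estimated counts per Ensembl gene (19.4% of entries are not whole numbers; the authors' column names gave each library) and FPKM per gene, both made by the authors. CASAVA 1.8.2 is named in the submitters' processing notes; for the aligner, counting tool, annotation, genome build and strand setting, no name was given in the sources used here. Without a stated strand setting, reads of overlapping antisense genes cannot be told apart.

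Of 37620 identifiers, 32897 matched a mouse symbol and none was ambiguous within the family. Gene coordinates and transcript lengths are those of GENCODE M21 on GRCm38, which may not be the authors' annotation. The 40 genes and the related lists were chosen with earlier results of these data known. Estimated counts were rounded, genes with 1 CPM or more in 2 libraries were kept (13400), and edgeR 4.0.16 in R 4.3.3 fitted cell type and genotype as additive terms to all 4 libraries (TMM scaling, glmQLFit and glmQLFTest, Benjamini-Hochberg adjustment over all genes tested, 1 residual degree of freedom, median prior degrees of freedom 6.67). A self-test on simulated counts followed the fit and used its dispersion. The labels name 1 pool for each group, so no p-value here measures a spread between pools of the same group. The residual of each gene is its departure from additive terms, combined with a prior drawn from all genes tested. Ratios between 2 libraries carry exact conditional 95% intervals, and intervals and the floor of 3 counts cover counting error only. A 2-fold size rule needed a ratio of at least 2 and an interval excluding no change. Every gene of the family was named; fitted values are printed for genes called by either term, past the size rule or among the 2 highest by mean FPKM in their role, plus others that carry a genotype result, except where a gene met the filter only through the group in which it is higher. Alternatives were total-count scaling, DESeq2 1.42.0, no filter, a filter of 10 CPM, limma 3.58.1 on log2(FPKM + 0.1) and log2(FPKM + 1), the tested term alone, and each library left out. Single values of some genes in the related and marker lists are not reported here.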

Additional observations from a re-analysis of the deposited data

Results flagged for a closer look

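In 3 calcium genes the BACHD to WT ratio pointed in opposite directions in D1 and D2 cells with both counting intervals excluding no change, against 4.66% of all genes tested. Cacna1h went from 409 CPM in WT to 359 CPM in BACHD D1 cells and from 386 to 418 CPM in D2 cells, a difference of 0.30 between the 2 log2 ratios (D2 minus D1). For Ryr3 the difference was 0.31, and D1 BACHD was the one library below the other 3. Camk2b differed by 0.091, from a log2 ratio of -0.06 in D1 cells to 0.03 in D2 cells. On the authors' FPKM the Cacna1h log2 ratios were -0.37 in D1 cells and 0.0013 in D2 cells, so its rise in D2 cells depends on the measure used. Ryr3 (-0.15 and 0.12) and Camk2b (-0.042 and 0.051) kept opposite directions on FPKM. These differences were not tested, because 1 pool per group leaves no residual degree of freedom for an interaction, and their causes were not tested either.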

How the results depend on the processing

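With 1 pool per group and 1 residual degree of freedom, only the difference shared by both cell types, or by both genotypes, can be tested, and differences between animals within a pool are not seen. No paired analysis was possible because each group is 1 pool and the labels carry no replicate numbers.

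For genotype, edgeR called 59 genes in all. Total-count scaling called 144, of which 3 were calcium genes, 1 higher and 2 lower in BACHD. DESeq2 called 2 calcium genes, both lower. In all, 0 genes were called with no filter, with limma on log2(FPKM + 0.1), with genotype as the only term and in each fit without 1 library, and 1 with limma on log2(FPKM + 1). The adjusted p of Cacna1e went from 0.0195 (DESeq2) to near 1 over these settings, and leaving out a library unbalances the cell types, since each such fit has the tested term alone.

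For cell type, 2274 genes and 16 calcium genes were called (5 higher in D2, 11 higher in D1). With no filter these were 810 and 7 (3 and 4). DESeq2 called 1330 genes. Limma with either pseudocount called 10 calcium genes, 2 of them higher in D2. With cell type as the only term 1449 genes were called, and 3 calcium genes were higher in D2. Leaving out 1 library gave 821 to 1400 genes in all and 5 to 11 calcium genes, 2 to 3 higher in D2 and 3 to 8 higher in D1.

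In D1 cells, 3 calcium genes, Orai1 among them, passed the 2-fold rule, against 0 under a filter of 10 CPM and 0 on FPKM + 1. With a ratio of 5 to 4 they were 6, 5 higher and 1 lower, and in D2 cells 3, 1 higher and 2 lower.

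Of 213 genotype values under other settings, 211 kept their direction, and of 206 cell type values 201 did. Those that turned were Camk2b for genotype (0.0046 with limma and either pseudocount) and, for cell type, Cacna1h (-0.011 with limma and either pseudocount) and Orai1 (-0.0495 with total-count scaling, -0.0188 with limma on log2(FPKM + 1), -0.025 with cell type alone). None of these 3 was called. With 1 library left out, 25 of 124 genotype values and 10 of 120 cell type values turned. When 1 library was left out, the log2 genotype values that turned ranged from -0.0800 to 0.0386 for Cacna1a, -0.201 to 0.104 for Cacna1b, -1.02 to 2.74 for Cacna1g, -0.146 to 0.0704 for Cacna1h, -0.196 to 0.158 for Cacna1i, -0.166 to 0.0517 for Cacnb1, -0.160 to 0.337 for Cacnb3, -0.0861 to 0.0588 for Camk2b, -0.233 to 0.964 for Itpr3, -0.988 to 0.612 for Ryr1, -0.269 to 0.0205 for Ryr3, -0.228 to 0.0690 for Slc8a2, -0.0848 to 0.223 for Slc8a3 and -0.156 to 0.0189 for Stim2. The cell type values that turned ranged from -0.0371 to 0.0296 for Atp2b2, -0.0186 to 0.159 for Cacna1h, -0.167 to 0.0285 for Cacna2d1, -0.103 to 0.0331 for Camk2a, -0.230 to 0.149 for Itpr1 and -0.504 to 0.690 for Orai1. Genes near the floor, with few counts, have the widest intervals.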

Other observations

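The 5 genes of the family that missed the expression filter were the SERCA genes Atp2a1 and Atp2a3, the L-type pores Cacna1f and Cacna1s, known from retina and skeletal muscle, and the exchanger gene Slc8a1, known from the heart. Their highest level in any library was 0.225 CPM for Atp2a1, 0.472 CPM for Atp2a3, 0.168 CPM for Cacna1f, 0.114 CPM for Cacna1s and 0.145 CPM for Slc8a1. Atp2a3 had 8, 8, 21 and 16 estimated counts (WT and BACHD D1 cells, then WT and BACHD D2 cells), and Slc8a1 had 3, 6, 4 and 6. No comparison between groups is made for these genes.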
